A study of Arabidopsis thaliana with 12 samples.

Results

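PSAN, PSBW, PSBY, PSB27, LHB1B2 and PRK are 6 nuclear genes of the Arabidopsis thaliana photosynthetic apparatus, each read by 1 probe of an expression array. They were taken by their probe numbers from the table of 3439 probes, and the platform annotation gives each of these probes a single gene, as it does for 692 probes in all. PSAN (AT5G64040) belongs to photosystem I, PSBW (AT2G30570), PSBY (AT1G67740) and PSB27 (AT1G03600) to photosystem II, LHB1B2 (AT2G34420) to the light-harvesting antenna and PRK (AT1G32060) to the Calvin cycle. All 6 were above 0 on all 12 arrays, so all passed the filter that left out the 173 probes at 0 throughout.

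Wild-type plants of ecotype Columbia 0 were compared in 2 groups of 6 samples. The ascorbate group spent 4 h in water and then 4 h in 25 mM ascorbate at pH 5.5. The water group spent 8 h in water, and the labels give no pH for it. Nothing in the labels names the tissue, the light, or a control moved to an ascorbate-free solution, so ascorbate, acidity and the change of solution cannot be told apart. The labels number the samples 1 to 6 in each group without saying whether these were separate plants, so each p-value reflects the scatter among these samples alone, some of which may be technical. None of the 11 root marker loci had a single-gene probe, so the tissue could be checked only by the presence of the photosynthesis transcripts themselves. The arrays hold RNA of whole samples, in which fewer cells of a type and less RNA per cell cannot be told apart.

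Photosynthesis starts when antenna proteins pass absorbed light energy to the photosystems. Photosystem II takes electrons from water, and photosystem I passes them on towards ferredoxin and NADP. The resulting ATP and NADPH drive the Calvin cycle, which fixes carbon dioxide into sugar phosphates. Ascorbate is abundant in chloroplasts, where it removes hydrogen peroxide formed at photosystem I, serves the xanthophyll cycle, and can donate electrons to a photosystem II whose water-splitting side is damaged. The photosystems mix subunits encoded in the chloroplast with subunits encoded in the nucleus, the light-harvesting antenna proteins are nuclear-encoded, and the 6 genes here are all nuclear.

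Deposited intensities were linear and relative, and the brightness of different probes does not order the abundance of their transcripts. They had sums of 3054 to 3562 and medians of 0.252 to 0.485 per array. The 2 lowest medians, 0.252 and 0.259, were those of ascorbate arrays 1 and 2. For testing, low values were raised to a floor, log2 was taken, and the arrays were quantile normalized, which gives every array the same set of values and keeps only each probe's rank. Ascorbate was set against water with limma across 3266 probes, with Benjamini-Hochberg adjustment over all of them and a threshold of 0.05. That comparison called 559 probes, or 17.1%. Samples of the same number in the 2 groups deviated together, with correlations of 0.35 to 0.56 across probes, so differences within a number are given too. Samples of different numbers were not compared in this way. Among all tested probes, the replicate number as a block called 796, or 24.4%. A share of 52.9% of all tested probes kept 1 direction within each consecutive pair of numbers (1 and 2, 3 and 4, 5 and 6), and 23.7% did so while the direction differed between the pairs.

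By limma, 0 of the 6 genes passed, against the 17.1% of all tested probes. At an unadjusted p under 0.05 there were 2, PSBW and PSBY, against 30.8% of all tested probes. An exact permutation test over all splits into 6 and 6, adjusted over all probes, also called 0 of the 6, against 14.3%. With the replicate number as a block PSB27 alone passed, 1 of 6 against 24.4%. The scaling decided other calls. On the intensities as deposited PSBW passed, 1 of 6 against 12.8%, and after median centring of the arrays PSAN, PSBW and PSB27 did, 3 of 6 against 15.2%. The median log2 fold change of the 6 was 0.12, beside 0.001 over all tested probes, and the median absolute value was 0.24 beside 0.32.

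PSBW had the brightest probe of the 6 and was the gene with the clearest separation in deposited intensity. PSBW is a small membrane subunit of photosystem II, encoded in the nucleus, that helps to hold the photosystem together with its antenna in supercomplexes. Its deposited intensity had a lowest, median and highest value of 47.1, 54.9 and 70.3 in ascorbate, against 28.2, 40.0 and 46.5 in water. The 2 groups did not overlap, which held, in the same direction, for 2.48% of all tested probes. PSBW was higher in ascorbate in 6 of 6 numbers, by 1.61-, 1.75-, 1.31-, 1.20-, 1.67- and 1.54-fold for numbers 1 to 6. Of the 6 genes, PSBW and PSB27 were higher in all numbers as deposited, beside 7.07% of tested probes. Both shares cover all tested probes, whose median log2 fold change as deposited was -0.35. The shares among probes of like brightness were not computed.

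In rank PSBW stood near the top of every array, where only a few places are left to move. It was the 5th to 8th brightest of 3439 probes on ascorbate arrays, with a median rank of 6, and the 7th or 8th on water arrays, with a median rank of 8. In numbers 1 and 2 it stood 6th in ascorbate against 8th in water, and in numbers 5 and 6 it stood 5th against 8th. In numbers 3 and 4 it stood 7th and 8th in ascorbate against 7th in both water samples. Quantile normalization turns those few ranks into a log2 level of 5.71 ± 0.20 in ascorbate and 5.46 ± 0.05 in water (SD, n = 6 each). The log2 fold change was 0.25 ± 0.09 (SE), 1.19-fold, with a limma adjusted p of 0.083, or 0.12 with the number as a block. As deposited it was 0.58 ± 0.16 (limma adjusted p 0.033), and after centring 0.98 ± 0.26 (limma adjusted p 0.027). Bright probes as a class stood higher in ascorbate as deposited: the median of the 39 probes with a mean intensity of at least 10 was 0.23, and 0.63 after centring. Without ascorbate sample 4, or without number 4 in both groups, PSBW also passed on the normalized scale, at 0.32 and 0.34 (limma adjusted p 0.023 and 0.039). Those fits called 575 of 3260 and 445 of 3252 tested probes. In every other fit without 1 sample or 1 number PSBW did not pass, at limma adjusted p of 0.0504 to 0.26. With numbers 5 and 6 left out and the replicate block, PSBW was at 0.096 (limma adjusted p 0.53).

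**Figure D1:**
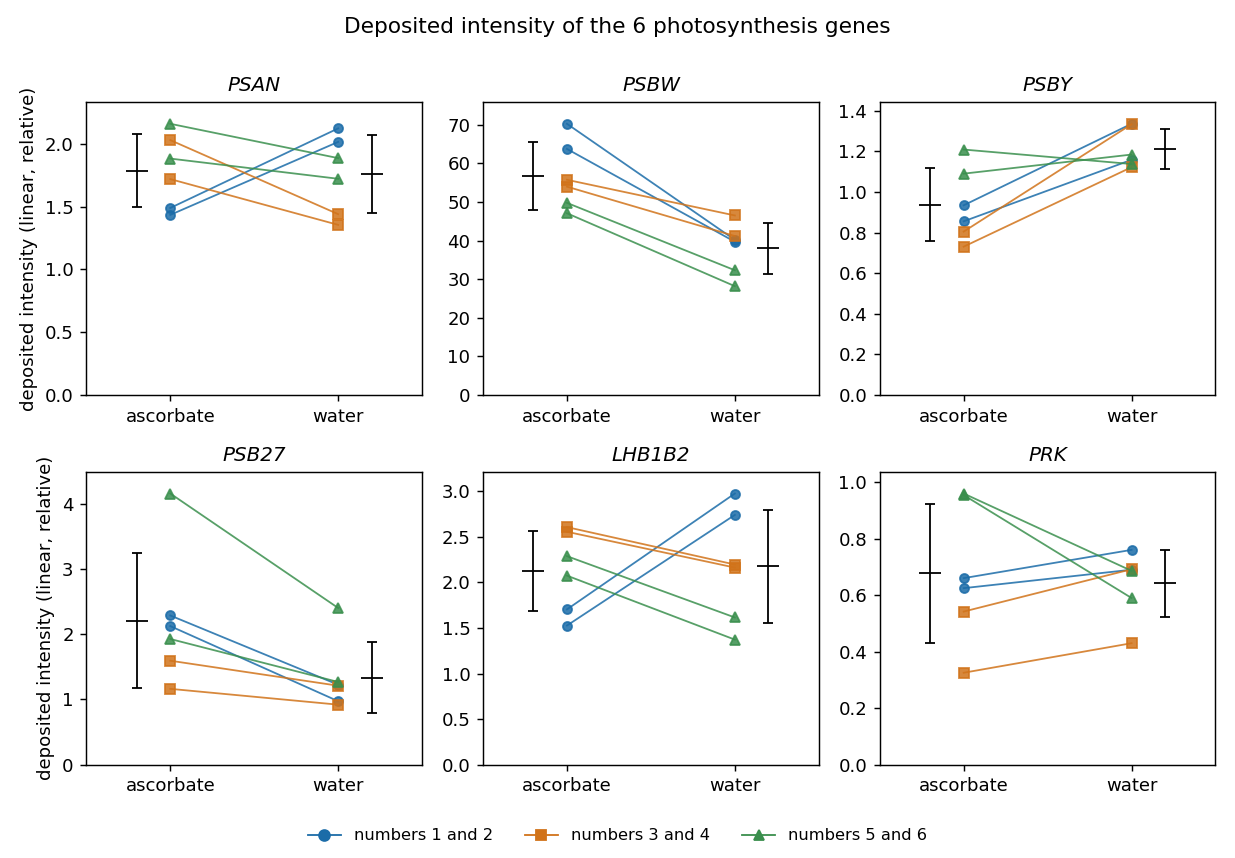
Deposited intensity (linear, relative units, axes from 0) of the 6 genes on each array, ascorbate left and water right, with lines joining samples of the same number and colours for consecutive pairs of numbers. Black bars show mean and SD (n = 6); PSBW does not overlap between groups (47.1 to 70.3 in ascorbate, 28.2 to 46.5 in water), and all 6 PSB27 lines run down from ascorbate to water.

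PSBY was the 1 photosystem II subunit gene with lower values in ascorbate in most numbers. Its nuclear gene encodes a precursor that is cut into small membrane proteins of photosystem II. The deposited intensity had a lowest, median and highest value of 0.731, 0.895 and 1.21 in ascorbate, against 1.12, 1.17 and 1.34 in water. Ascorbate samples 1 to 5 all lay below the lowest water value, and ascorbate sample 6 lay among the water samples. On the normalized scale PSBY had -0.07 ± 0.22 in ascorbate and 0.25 ± 0.15 in water (SD, n = 6 each). The log2 fold change was -0.32 ± 0.11 (SE, limma adjusted p 0.082, 95% interval -0.57 to -0.06 before adjustment). The exact permutation test gave p = 0.011 for PSBY, which was 0.063 adjusted over all probes.

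The size of the PSBY difference depended on the numbers. The normalized log2 difference was -0.77 and -0.66 in numbers 3 and 4, but -0.22 and -0.09 in numbers 1 and 2, and -0.19 and 0.04 in numbers 5 and 6. In numbers 3 and 4 PSBY was 780th and 896th on the ascorbate arrays, against 341st and 460th on the water arrays. With numbers 3 and 4 left out and the replicate block, it was -0.12 (limma adjusted p 0.34). Centring on the array median took the difference to 0.0036, but there the 392 probes with a mean intensity of 1 to 2, to which PSBY belongs, had a median of 0.37. As deposited PSBY was at -0.39 (limma adjusted p 0.094), with a median of -0.03 for those probes.

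PSB27 had the largest log2 fold change of the 6 and the widest spread. It encodes a protein of the thylakoid lumen that binds photosystem II during its assembly and repair. Deposited intensity had a lowest, median and highest value of 1.16, 2.02 and 4.15 in ascorbate, against 0.920, 1.22 and 2.40 in water. The groups overlapped, because water sample 5 at 2.40 exceeded all ascorbate samples other than number 5, and ascorbate sample 4 at 1.16 lay below 4 of the water samples. Within numbers the order was the same throughout: PSB27 was higher in ascorbate by 2.18-, 1.87-, 1.32-, 1.26-, 1.73- and 1.52-fold for numbers 1 to 6.

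On the normalized scale PSB27 had 0.97 ± 0.58 in ascorbate and 0.34 ± 0.57 in water (SD, n = 6 each). The difference of 0.64 ± 0.32 log2 units (SE), or 1.55-fold, did not pass without the block (limma adjusted p 0.20). The spread that it was measured against lay largely between numbers. Sample 5 was 1.08 log2 units above sample 6 in ascorbate and 1.06 above it in water. Sample 3 was above sample 4 by 0.46 in ascorbate and 0.45 in water. The gap was less alike for samples 1 and 2, where sample 2 was higher by 0.07 in ascorbate and 0.40 in water. With the replicate number as a block the standard error was 0.14 in place of 0.32, and PSB27 passed (limma adjusted p 0.024). An exact sign-flip permutation test of the 6 differences gave p = 0.03125, which is the smallest it can give. Of the 6 such tests, unadjusted, those of the other genes gave exact p-values of 0.0625 for PSBY, 0.125 for PSBW, 0.28 for PRK, 0.81 for LHB1B2 and 1 for PSAN. A direction that was higher in all 6 numbers on the normalized scale was found for 15.1% of all tested probes. The block and the sign-flip test both treat the 6 numbers as independent of each other, which the labels do not state.

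The PSB27 difference was uneven across numbers. In numbers 1 and 2 it was 1.23 and 0.90 log2 units, in numbers 3 and 4 it was 0.32 and 0.30, and in numbers 5 and 6 it was 0.55 and 0.52. In rank PSB27 stood 205th and 193rd on ascorbate arrays 1 and 2, against 741st and 489th on water arrays 1 and 2. The blocked call stood without numbers 1 and 2, which hold the ascorbate arrays of lowest median (0.39, limma adjusted p 0.032), and without numbers 3 and 4 (0.82, adjusted p 0.034). It was lost without number 5 (0.67, adjusted p 0.064) and without numbers 5 and 6 (0.72, adjusted p 0.12). In the order given, these fits called 656 of 3145, 735 of 3235, 406 of 3260 and 187 of 3246 tested probes. With consecutive numbers averaged, 3 against 3, the limma adjusted p was 0.45, and with those pairs as a random block at an estimated correlation it was 0.61. As deposited PSB27 had a similar value, 0.69, where probes of its brightness had a median of -0.03. After centring it was 1.08, where their median was 0.37.

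LPA19, the other gene of the PSB27 family, was also on the array. In Arabidopsis LPA19 takes part in processing the D1 reaction centre protein during photosystem II assembly. Deposited intensity of LPA19 ran between 0.131 and 0.321 in ascorbate, against 0.298 and 0.401 in water. As deposited, the 882 probes with a mean intensity of 0.25 to 0.5, to which LPA19 belongs, had a median log2 fold change of -0.45. The normalized log2 fold change of LPA19 was -0.14 ± 0.14 (SE, limma adjusted p 0.55), and the difference between PSB27 and LPA19 was not tested.

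**Figure D2:**
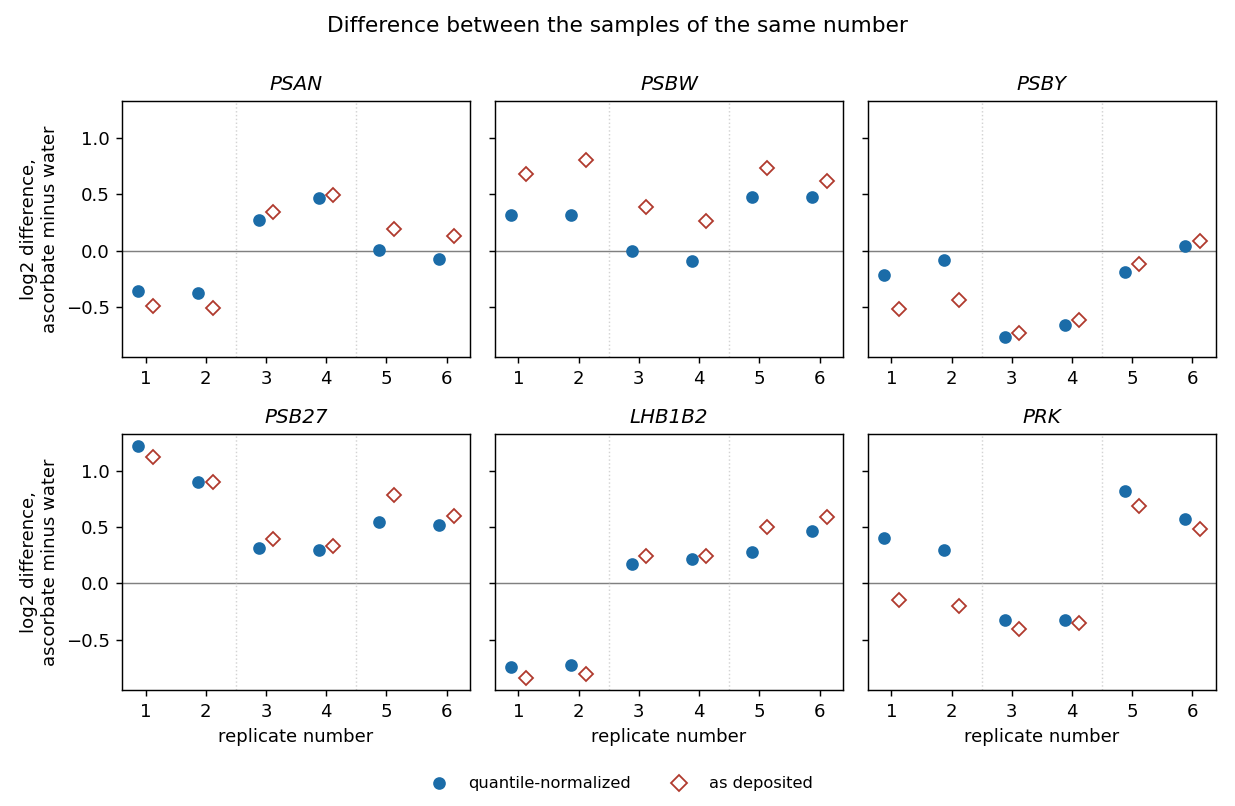
Log2 difference, ascorbate minus water, between samples of the same replicate number (x axis, 1 to 6) for each gene, with filled circles on the quantile-normalized scale and open diamonds as deposited. PSB27 lies above 0 in every number on both scales, while LHB1B2 lies at -0.74 and -0.73 in numbers 1 and 2 and above 0 in the others.

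PSAN had nearly the same mean level in both groups. It encodes a subunit on the lumen side of photosystem I that in Arabidopsis helps plastocyanin to deliver electrons. The lowest, median and highest deposited intensities were 1.43, 1.80 and 2.16 in ascorbate, against 1.35, 1.80 and 2.12 in water, and the groups overlapped nearly completely. Normalized log2 levels were 0.81 ± 0.22 in ascorbate and 0.82 ± 0.21 in water (SD, n = 6 each). The log2 fold change was -0.01 ± 0.12 (SE, limma adjusted p 0.98), with a 95% interval of -0.28 to 0.26.

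Within numbers PSAN did differ, in opposite directions. It was lower in ascorbate by 1.41- and 1.43-fold as deposited in numbers 1 and 2, and higher by 1.27- and 1.41-fold in numbers 3 and 4. In numbers 5 and 6 it was 1.14- and 1.09-fold higher as deposited, but the normalized log2 differences were 0.004 and -0.07. Its rank was 330th and 313th on ascorbate arrays 1 and 2 against 229th and 216th on water arrays 1 and 2. In numbers 3 and 4 the ranks were 250th and 197th in ascorbate against 333rd and 310th in water. After centring PSAN passed at 0.42 (limma adjusted p 0.045), but probes of its brightness then had a median of 0.37.

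LHB1B2 had the sharpest split between numbers of the 6 genes. It is 1 of several highly similar genes for the chlorophyll-binding protein LHCB1, a main component of the mobile antenna of photosystem II. Signal from near-identical copies cannot be told apart on this array, and LHB1B1, its close relative on the same chromosome, had no single-gene probe. Deposited intensity had a lowest, median and highest value of 1.53, 2.18 and 2.60 in ascorbate, against 1.37, 2.18 and 2.97 in water. The log2 fold change was -0.05 ± 0.20 (SE, limma adjusted p 0.90, 95% interval -0.50 to 0.39), from levels of 1.06 ± 0.36 in ascorbate and 1.11 ± 0.37 in water (SD, n = 6 each).

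In numbers 1 and 2 LHB1B2 stood at 1.53 and 1.70 in ascorbate against 2.74 and 2.97 in water, 1.79- and 1.75-fold lower. In the other 4 numbers it was higher in ascorbate, by 1.18- and 1.19-fold in numbers 3 and 4 and by 1.42- and 1.51-fold in numbers 5 and 6. The same reversal stood in rank: 305th and 274th in ascorbate against 158th and 146th in water for numbers 1 and 2. For numbers 5 and 6 the ranks were 188th and 217th in ascorbate against 241st and 349th in water. Leaving out numbers 1 and 2 turned the log2 fold change to 0.27 (limma adjusted p 0.43), or with the block an adjusted p of 0.063. LHB1B2 and PRK were the 2 of 6 genes that kept 1 direction within each consecutive pair but not between pairs, beside the 23.7% of all tested probes.

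**Figure D3:**
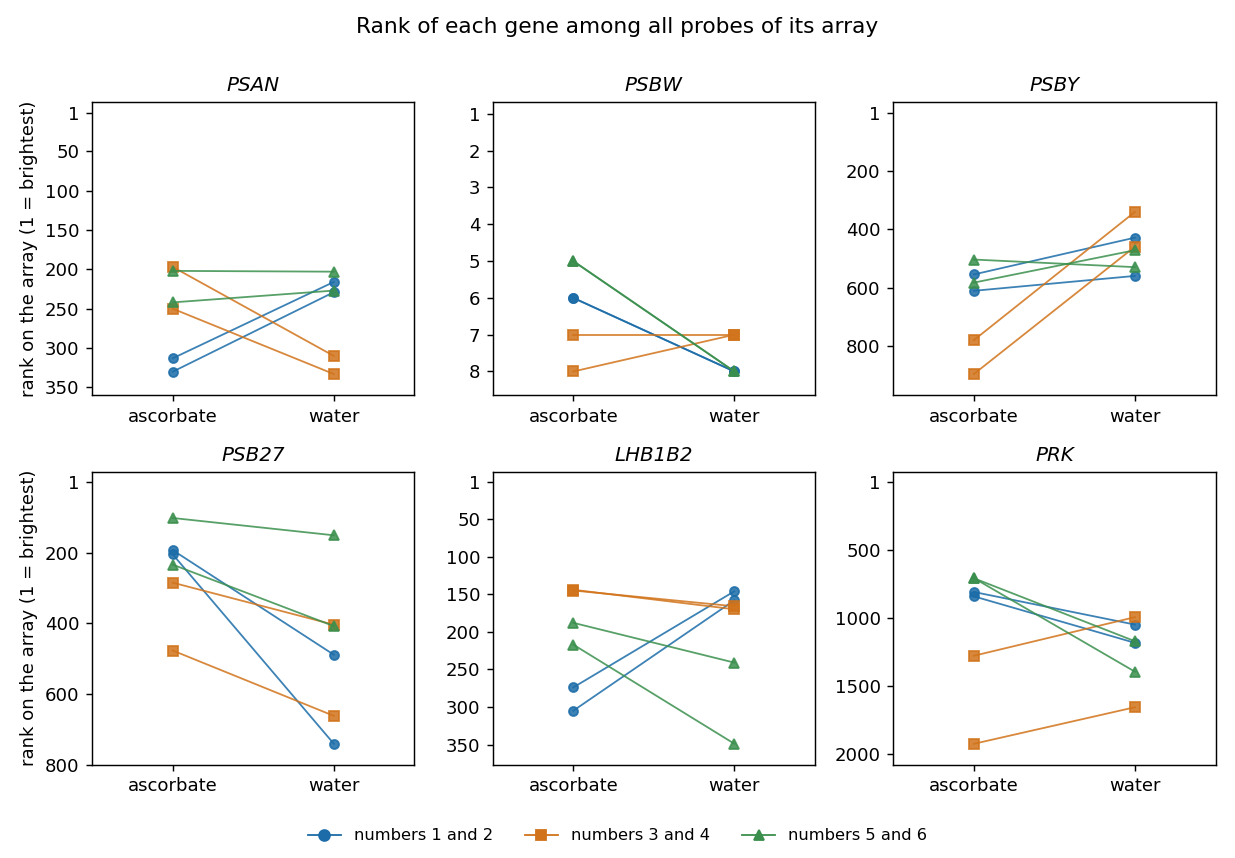
Rank of each gene among the 3439 probes of its array (y axis, linear, 1 = brightest at the top), ascorbate left and water right, with lines joining samples of the same number. PSBW stays between 5th and 8th, PSB27 ranks closer to the top in ascorbate in every number, and the LHB1B2 lines of numbers 1 and 2 cross the others.

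PRK had the dimmest probe of the 6 and was not called. Phosphoribulokinase makes ribulose bisphosphate, the acceptor of carbon dioxide, and is switched on in the light through thioredoxin. The lowest, median and highest deposited intensities were 0.325, 0.642 and 0.959 in ascorbate, against 0.430, 0.688 and 0.760 in water. Both extremes thus lay in ascorbate, sample 3 lowest and samples 5 and 6 highest. Normalized levels were -0.56 ± 0.56 in ascorbate and -0.80 ± 0.27 in water (SD, n = 6 each), a difference of 0.24 ± 0.24 log2 units (SE, 95% interval -0.29 to 0.78, limma adjusted p 0.53). As deposited the value was 0.01.

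The PRK differences by number fell into 3 levels. In numbers 5 and 6 PRK was 1.62- and 1.40-fold higher in ascorbate as deposited, and in numbers 3 and 4 it was 1.32- and 1.28-fold lower. In numbers 1 and 2 the sign depended on the scale, at 0.40 and 0.30 log2 units after normalization but -0.14 and -0.20 as deposited. PRK shared with PSB27 a gap between consecutive numbers that recurred in both groups: sample 4 was 0.73 log2 units above sample 3 in ascorbate and 0.73 above it in water. With numbers 3 and 4 left out and the replicate block, PRK passed at 0.54 (limma adjusted p 0.044), where 735 of 3235 tested probes were called. With numbers 5 and 6 left out and the block, PRK was at 0.012 (limma adjusted p 0.98).

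**Figure D4:**
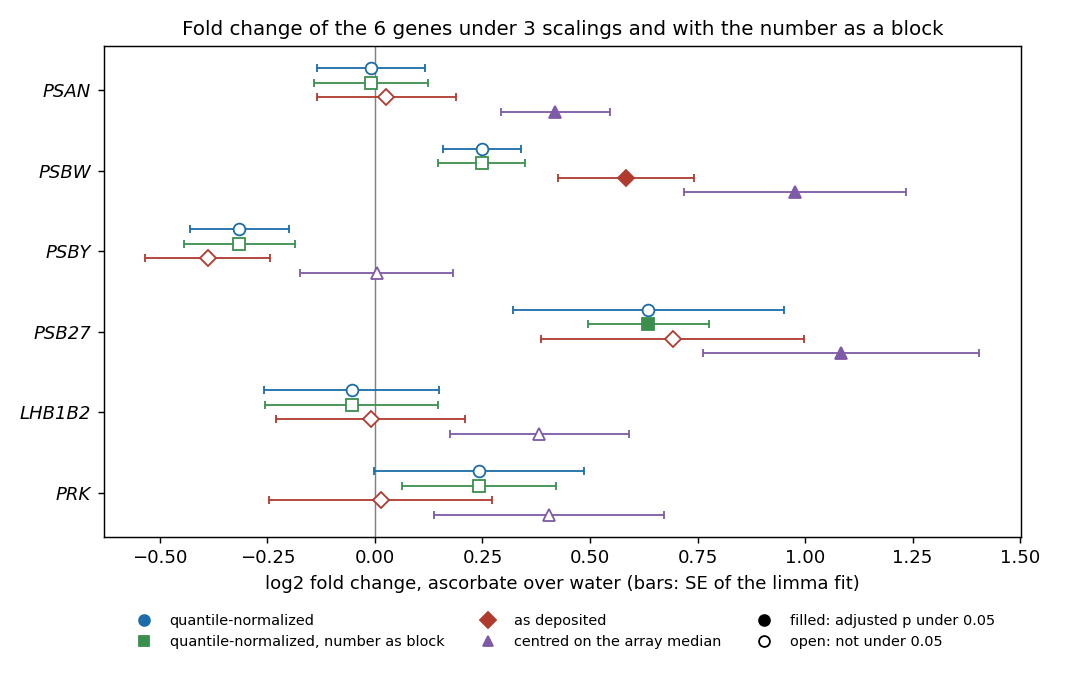
Log2 fold change, ascorbate over water, of each gene with SE bars from limma on the quantile-normalized scale without and with the replicate number as a block, as deposited, and centred on the array median; filled symbols have an adjusted p under 0.05. PSB27 is filled with the block and after centring, PSBW as deposited and after centring, and PSAN after centring.

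Ratios of deposited intensities on the same array are free of a factor common to the whole array, but not of the shift of bright against dim probes described above. The ratio of PSBW to PSBY was higher in ascorbate in 6 of 6 numbers. Its log2 value was 5.93 ± 0.43 in ascorbate and 4.96 ± 0.27 in water (SD, n = 6 each), a 1.96-fold difference. That is 0.97 log2 units as deposited, against 0.56 on the normalized scale. The groups met at the edge, with a lowest ratio of 41.2 in ascorbate and a highest of 41.5 in water. The ratio of PSBY to PSB27 was lower in ascorbate in all 6 numbers, at a log2 of -1.14 ± 0.48 in ascorbate and -0.06 ± 0.52 in water (SD, n = 6 each). PSB27 against LHB1B2 and against PRK was also higher in ascorbate in 6 of 6 numbers, by 1.63- and 1.60-fold. These are 0.70 and 0.68 log2 units as deposited, against 0.69 and 0.39 on the normalized scale. PSBW against LHB1B2 and against PRK was higher in all 6 numbers too, at 0.59 and 0.57 as deposited but 0.30 and 0.0071 normalized. PSBY against PRK was lower in all 6, at -0.40 as deposited and -0.56 normalized. As deposited, PSBW against PSB27 was nearly equal in both groups, at 4.79 ± 0.70 in ascorbate and 4.89 ± 0.73 in water on the log2 scale (SD, n = 6 each), although it was lower in ascorbate in 5 of the numbers. On the normalized scale the log2 difference of this ratio, ascorbate minus water, was -0.39. These ratios were described and not tested, since the genes were picked with earlier results known.

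Deviations from the group means showed which genes varied together over the 12 arrays, all given as descriptions over arrays that share replicate numbers. Among the 6, PSBW and PSBY were closest, with a Pearson correlation of 0.85, although their fold changes had opposite signs. PSBW and PRK followed at 0.68, and PSAN and PSBY were most opposed at -0.55. Among the 548 other single-gene probes above 0 on all arrays, LHB1B2 was most like AT5G62360 (0.96), AT1G35510 (0.95) and AT5G58330 (0.93), the last of which encodes the chloroplast NADP-dependent malate dehydrogenase. AT5G58330 had a log2 fold change of 0.17 (limma adjusted p 0.75).

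PRK was most like the chromatin remodeling gene chr31 (0.90), CHL (0.88), which encodes the chloroplastic lipocalin, and AT4G17070 (0.84). PSAN was most like AT3G52550 (0.91), GH9B12 (0.86), a glycosyl hydrolase gene, and AT3G11150 (0.81). PSB27 had the weakest matches, AT2G29870 (0.79), AT2G37880 (0.76) and CCL (0.75). PSBW was most like AT1G13990 (0.94), AT2G46630 (0.92) and AT2G38550 (0.92), though its own normalized values took only 4 levels. PSBY was most like AT2G38500 (0.88), AT2G46630 (0.86) and PSBW.

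The rest of the photosynthesis lists was thinly covered. Of 99 loci for subunits of both photosystems, photosystem II assembly and repair, the antenna, electron transport, ATP synthase and the Calvin cycle, 8 had a single-gene probe and 7 could be tested. These were the 6 genes above and LPA19, and 0 of 7 passed in either direction by limma, against 17.1% of all tested probes. At an unadjusted p under 0.05 there were 2 of 7, against 30.8%, and 1 of 7 was called with the block, against 24.4%. The median log2 fold change of the 7 was -0.01. SBPASE, for the Calvin cycle enzyme sedoheptulose bisphosphatase, was listed at 0 on all 12 arrays and was not tested. A further 6 tested probes list several genes with at least 1 of the 99 loci among them, so they carry no single name. None of these 6 was called by limma (adjusted p 0.13 to 0.77), against the 17.1% of all tested probes. With the block 1 of the 6 was called (adjusted p 0.033), against the 24.4%. None of the 16 loci for electron transport and ATP synthase, and none of the senescence, stress or cytosolic housekeeping loci, had a single-gene probe.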

How the data were processed

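Total RNA of 12 samples was read on 12 one-channel arrays. The deposited values are intensities on a linear scale, made by the authors. No label or header names a scanner, a background correction or a scaling. The highest value of each array was 100, other than on ascorbate array 4 (91.4) and water arrays 5 (85.3) and 6 (91.6). PSBW had its lowest intensities, 28.2 and 32.3, on water arrays 5 and 6, and a link with the scaling was not tested. Depth has no counterpart on arrays, and the number of arrays limits the precision. From the deposited intensities, each array was given a floor at the 1st percentile of its positive values, and lower values, zeros included, were raised to it. Then log2 was taken and the arrays were quantile normalized in limma 3.58.1 (R 4.3.3). The fit was lmFit and eBayes on 3266 probes, two-sided, Benjamini-Hochberg adjusted. Brightness classes and the comparison of consecutive numbers were chosen after the values were seen.

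The members and lists were chosen with earlier results of these data known. All 6 members are named, as are the list loci with a single-gene probe and the 3 single-gene probes most like each member. Loci came from the RefSeq gene table of TAIR10.1, used for names only. It matched 690 of the 692 single-gene probes. The arrays carry no named build, so no coordinates are given.

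Deviations of samples with the same number correlated at 0.35 to 0.56 across 3266 probes in all 6 numbers. Samples of different numbers were not compared in this way, so whether the match is particular to the number was not tested. The main comparison has no block, and the block is given beside it where it changes a call. The method was tested on simulated data. The simulated noise was independent between samples and the replicate block was not simulated, so likeness between numbers was not covered. The alternatives were other scalings, floors, filters, blocks, averaging of consecutive numbers, an exact permutation test, and leaving out samples.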

Additional observations from a re-analysis of the deposited data

Results flagged for a closer look

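In 1 of the 12 sets of 6 values (6 genes in 2 groups), a single sample was remote from the rest. Chance alone would do this in about 0.6 sets. For PSB27, water sample 5 was at 1.41 normalized log2 units, against -0.20 to 0.36 in the other 5 water samples. Ascorbate sample 5 was also the highest of its group, at 1.96 log2 units. Without water sample 5 the PSB27 log2 fold change was 0.87 (limma adjusted p 0.063).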

How the results depend on the processing

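Relative to the unblocked fit on quantile-normalized values, the count of 559 called probes ranged over 315 to 579 when 1 sample or 1 number was left out, lowest without number 5 and next without number 6 (319). It was 148 with consecutive numbers as a random block and 1 with consecutive numbers averaged. With the replicate block it was 796, and 187 with that block and numbers 5 and 6 left out. The share of calls that were higher in ascorbate was 21.7% as deposited and 72.7% after centring, against 56.9%, and the median log2 fold change of all tested probes was -0.35 and 0.04 there, against 0.001.

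As deposited, with or without the replicate block, PSAN was at 0.027, PSBW at 0.58 and PSB27 at 0.69. PSB27 passed only with the block, which called 565 of 3266 tested probes. After centring, with or without the block, PSAN was at 0.42, PSBW at 0.98, PSBY at 0.0036, PSB27 at 1.08 and LHB1B2 at 0.38. The mean paired differences have the same values. For these the exact sign-flip test, unadjusted, gave p = 0.03125, the smallest it can give, for PSBW and PSB27 on both scales. After centring it gave the same p for PSAN and LHB1B2, where probes of their brightness had medians of 0.37 and 0.57. As deposited, 7.07% of tested probes were higher in all 6 numbers. The share after centring was not computed. The replicate block alone gave PSB27 a call at 0.64 and changed no other call of the 6. Without numbers 1 and 2, with or without the block, PSAN was at 0.15 and LHB1B2 at 0.27. With the block PSB27 passed there at 0.39, where 656 of 3145 tested probes were called. Without numbers 3 and 4, with the block, PSBW passed at 0.44, PSB27 at 0.82 and PRK at 0.54. That fit called 735 of 3235 tested probes. Without numbers 5 and 6, with the block, PSAN was at 0.00029, PSBW at 0.096 and PRK at 0.012. Leaving out 1 sample or 1 number gave -0.11 to 0.061 for PSAN, 0.18 to 0.34 for PSBW, -0.39 to -0.23 for PSBY, 0.44 to 0.87 for PSB27, -0.18 to 0.082 for LHB1B2 and 0.13 to 0.45 for PRK. Where PSAN and LHB1B2 changed sign, the cause was not tested. The floor, the offset and the filters on dim probes changed no call and no direction of the 6 genes. With 5 numbers the sign-flip test cannot go under 0.05, so it was not run without single numbers.

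The fits with the replicate block on other scales or without certain numbers, and the sign-flip tests on other scales, were chosen after seeing the data. The limits are the unknown scaling of the deposited intensities and the unknown meaning of the numbers.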
